A study of Homo sapiens with 6 samples.

Results

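The growth factor receptors EGFR, ERBB2, ERBB3, MET, AXL, FGFR1, IGF1R and INSR and the insulin receptor substrates IRS1 and IRS2 were followed in MiaPaCa-2, an established human pancreatic ductal adenocarcinoma (PDAC) cell line supplied by ATCC. These 10 genes of the 60668 in the table were taken by name, with no cut on their values but with earlier results of these data known, and all 10 were among the 21101 tested genes (mean value of 1 or more). Parental cells, with no genetic change or drug in either condition, were kept for 48 h in low glucose (2.5 mM, 3 libraries) or in control medium (25 mM, 3 libraries), and total RNA was sequenced as strand-specific libraries. The design text describes the 3 libraries of a condition as independent biological replicates of this 1 line, while the treatment field of the labels reads 2.5 mM for all 6 samples and only the titles and the design text mark the controls. The comparison asks how this line responded to glucose withdrawal, at the level of the transcripts of its receptors.

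Receptor tyrosine kinases are membrane proteins, many of which pair up when a growth factor binds. The kinases of a pair then phosphorylate one another on tyrosines. Adaptor proteins dock on these sites and pass the signal to RAS and ERK and to PI3K and AKT, while phosphatases, ubiquitin ligases and feedback inhibitors end it. The insulin and IGF receptors work through the docking proteins IRS1 and IRS2, and transcription of IRS2 is known to rise when insulin signalling is weak and FOXO factors are in the nucleus. EGFR, MET, AXL and IGF1R have been studied as drug targets in pancreatic cancer.

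Values are normalized counts, that is, reads on a gene divided by a size factor of the library. They are listed throughout for the control libraries of 9741183, 10126218 and 10190154 reads, and then for low glucose replicate 1 (10841656 reads), low glucose replicate 2 (10595408 reads) and the third low-glucose library (13733477 reads). The control libraries stood apart from each other in a way that touched these genes. For 9 of the 10, ERBB3 being the exception, the highest of the 3 control values was in the library of 10126218 reads, which held the highest control value of 37.8% of all genes tested. For 6 of the 10 the lowest control value was in the library of 10190154 reads. All 10 transcripts are long, with canonical forms of 4557 to 12235 bp. Among the 3097 genes with transcripts at least as long as the shortest of them and a mean that reached 100, 68.3% were also highest in the control library of 10126218 reads, against 34.4% of the 7043 shorter ones. Results are therefore given without these libraries where that changes them.

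As for cell identity, the keratins KRT8, KRT18 and KRT19, the ductal factor SOX9 and the mesenchymal markers VIM and ZEB1 were well expressed. The epithelial adhesion genes EPCAM and CDH1, however, had at most 3 reads in any library, and 1 of the 4 mesenchymal markers had 0 reads in all libraries. All 4 acinar markers and the pan-leukocyte gene PTPRC had 0 reads. The sum of the 8 ductal epithelial markers lay between 65241 and 78648 in control and between 37305 and 39362 in low glucose. Of the 6 tested, 3 (50%) were lower. The sum of the 4 mesenchymal markers lay between 58535 and 66673 and between 79934 and 83184. Of the 3 tested, 1 (VIM, 33.3%) was higher, and 0 were higher in 4 of the 16 alternatives analysed. The sum of the 6 fibroblast markers lay between 2688 and 2919 and between 1926 and 1950, with 2 of the 3 tested (66.7%) lower. With a mean of at least 10 required, 2 of the 6 were tested and both were lower. Among all genes tested 16.2% were lower and 14.7% higher, and 48% passed in either direction where the mean was 100 or more. The sum of the 3 endothelial markers, nearly all of it CDH5, lay between 157 and 192 in control and between 9.88 and 12.1 in low glucose. The part of these shifts in the receptor results was not tested.

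**Figure D1:**
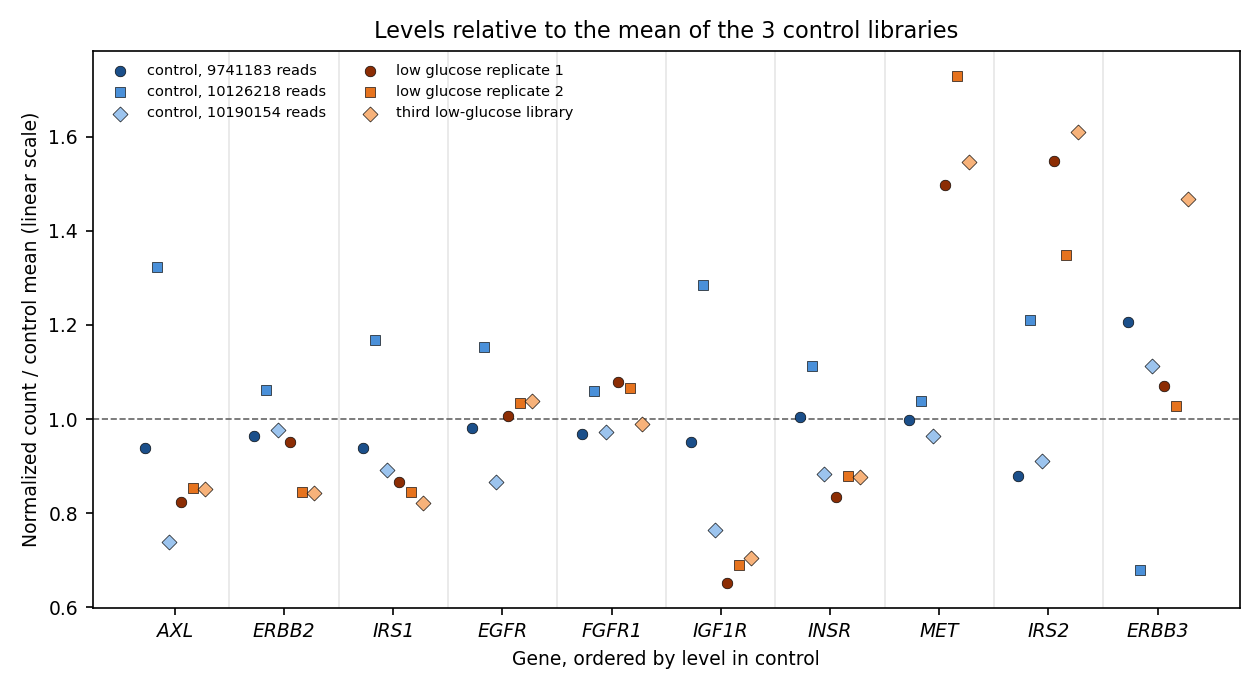
Normalized count of each of the 10 genes in each library, divided by the mean of its 3 control libraries (vertical axis, linear scale, dashed line at 1), with 1 point per library. MET and IRS2 lie above 1.3 in every low-glucose library, IGF1R lies near 0.7, and the control library of 10126218 reads is the highest control point for every gene but ERBB3.

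The hepatocyte growth factor receptor MET and the docking protein IRS2 were higher in low glucose, and the IGF1 receptor gene IGF1R was lower. MET rose 1.59-fold and IRS2 1.50-fold, and IGF1R stood at 0.682 of its control level. No other of the 10 genes passed the test, limma on log2(value + 1) with Benjamini-Hochberg adjustment over all genes tested and a threshold of 0.05, so 3 of 10 (30%) passed. Among all genes tested 30.9% passed, 14.7% higher and 16.2% lower, and where the mean was 100 or more the share was 48%. The share among the 10 was thus close to that of all genes tested. It was below that of genes with a mean of 100 or more, which all of the 10 but ERBB3 reached. Of the 3097 such genes with transcripts at least as long as the shortest of the 10, 49.4% passed, 478 higher and 1053 lower. Their median log2 fold change was -0.13, against -0.053 for the 7043 shorter ones. With a length trend removed from each library these medians were -0.11 and -0.13. With library size in place of the deposited size factors, the split of all calls was 3935 higher and 2647 lower instead of 3111 and 3417, and the same 3 genes passed in the same directions. The 3 low-glucose values did not overlap the 3 control values for 6 of the 10 genes, where 43.9% of all tested genes showed no overlap. This depended on the scaling: with reads scaled to library size instead, ERBB2, INSR and IRS1 overlapped and FGFR1 did not. In bulk RNA a lower value can stem from fewer cells that express a gene or from less RNA per cell, and these cannot be told apart.

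Since the 3 genes moved in different directions, the promoters RefSeq gives for them (GRCh38.p14) are shown here as the 250 bases before the transcription start, in the direction of transcription. Capitals mark the GC box (GGGCGG, the core bound by SP1-type factors), the CCAAT box (CCAAT) and the insulin response element (TGTTTTG, one form of the FOXO site), each searched on both strands, so that a match on the other strand appears as its reverse complement. The MET window is chr7:116671946-116672195 on the plus strand, the IRS2 window chr13:109786584-109786833 on the minus strand and the IGF1R window chr15:98648289-98648538 on the plus strand.
MET: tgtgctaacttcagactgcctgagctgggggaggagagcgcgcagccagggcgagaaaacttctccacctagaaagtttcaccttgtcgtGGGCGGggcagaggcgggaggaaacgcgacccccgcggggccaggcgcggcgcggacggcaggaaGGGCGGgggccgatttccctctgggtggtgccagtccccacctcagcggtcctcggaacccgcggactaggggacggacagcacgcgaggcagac
IRS2: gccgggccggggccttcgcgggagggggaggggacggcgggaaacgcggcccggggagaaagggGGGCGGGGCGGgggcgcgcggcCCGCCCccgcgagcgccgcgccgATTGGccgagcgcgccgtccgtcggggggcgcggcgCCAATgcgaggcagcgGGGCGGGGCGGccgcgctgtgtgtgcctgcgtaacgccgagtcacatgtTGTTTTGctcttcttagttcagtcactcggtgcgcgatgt
IGF1R: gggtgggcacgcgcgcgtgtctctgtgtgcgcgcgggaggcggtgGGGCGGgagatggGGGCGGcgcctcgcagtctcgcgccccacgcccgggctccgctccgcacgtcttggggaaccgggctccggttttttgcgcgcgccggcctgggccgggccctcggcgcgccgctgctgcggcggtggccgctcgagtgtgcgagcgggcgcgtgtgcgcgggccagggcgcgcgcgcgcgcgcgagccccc
All 3 windows are rich in G and C, with 68.4% for MET, 76.4% for IRS2 and 81.2% for IGF1R. GC boxes occur in each, with 2 in MET, 2 in IGF1R and 5 in IRS2, of which neighbouring ones overlap, and 42.6% of all 35116 promoter windows hold one. The IRS2 window also holds 2 CCAAT boxes (32.0% of all windows have at least 1) and 1 insulin response element, 40 to 34 bases before the start, a motif present in 4.30% of all windows. No match to the other forkhead motif TGTTTAC, to the E-box CACGTG or to the ATF4-type motif TGATGNAA was found in the 3 windows, and these occur in 2.98%, 6.34% and 3.14% of all windows. Windows were read for 8 of the 10 genes, without ERBB3 and FGFR1, and IRS2 was the 1 gene of the 8 with the insulin response element. These are matches of letters only.

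MET (ENSG00000105976.15, chromosome 7 of hg38, 116672196 to 116798377, plus strand) encodes the receptor for hepatocyte growth factor, which drives cell scattering and invasive growth. Its normalized counts were 195, 203 and 188 in control and 292, 338 and 302 in low glucose. The control values lay close together and every low-glucose value was far above them. The mean rose from 195 ± 7.28 (SD, n = 3) to 311 ± 23.9 (SD, n = 3), which is 0.66 on the log2 scale, with a standard error of 0.105 (limma adjusted p = 0.000252). The coefficient of variation of 3.73% in control was below the 7.51% that counting 174 to 182 reads alone would give. MET passed in all 16 alternative analyses, with a log2 fold change of 0.60 to 0.75. No annotated gene shares exon bases with it.

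AXL (ENSG00000167601.12, chromosome 19, 41219223 to 41261766, plus strand), the receptor for GAS6 and a marker of mesenchymal, drug-resistant states, had a wide spread in control. Its values were 1493, 2108 and 1176 in control and 1312, 1358 and 1356 in low glucose. The low-glucose libraries lay within a narrow band, inside the range of the controls. The means were 1592 ± 474 (SD, n = 3) and 1342 ± 26.1 (SD, n = 3), and the difference of -0.20 on the log2 scale did not pass (standard error 0.147, limma adjusted p = 0.322). This value turned on single control libraries: it was 0.018 (adjusted p = 0.886) without the control library of 10126218 reads and -0.40 (adjusted p = 0.00662) without that of 10190154 reads. A gene on the opposite strand, ENSG00000269652, shares 67 bp of exon with AXL and had 6.97% of its reads.

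FGFR1 (ENSG00000077782.20, chromosome 8, 38400215 to 38468834, minus strand), which binds fibroblast growth factors, had values of 309, 339 and 311 in control and 345, 341 and 317 in low glucose. The ranges overlapped, though not with reads scaled to library size. The change of 0.064 did not pass (standard error 0.0955, limma adjusted p = 0.661), nor did the 0.11 found without the control library of 10126218 reads (adjusted p = 0.443). Its 95% confidence interval, from -0.14 to 0.27, stays below the estimate for MET. Of the genes on the opposite strand, ENSG00000255201 shares 387 bp of exon with FGFR1 and had 8.38% of its reads. LETM2 shares 138 bp and had 3.01%.

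The EGFR family is made of receptors that pair with each other. EGFR (ENSG00000146648.18, chromosome 7, 55019017 to 55211628, plus strand) binds EGF, TGFA, amphiregulin, epiregulin and others. Its values were 1973, 2319 and 1741 in control and 2022, 2081 and 2087 in low glucose, so that the low-glucose values lay within the range of the controls. The log2 fold change was 0.047, with a 95% confidence interval from -0.15 to 0.25 (limma adjusted p = 0.748). After quantile normalization, however, EGFR passed at 0.26 (limma adjusted p = 0.0329), and it was 0.15 (adjusted p = 0.0673) without the control library of 10126218 reads and -0.052, with its sign turned, without that of 10190154 reads. EGFR-AS1, on the opposite strand, shares 186 bp of exon with EGFR and had 5.06% of its reads.

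ERBB2 (ENSG00000141736.13, chromosome 17, 39687914 to 39730426, plus strand), which has no known ligand of its own and serves as partner of the others, had values of 1423, 1567 and 1441 in control and 1406, 1248 and 1246 in low glucose. In these values every low-glucose library was below every control library, the first of them only just, but the ranges overlapped with reads scaled to library size. The change of -0.19 did not pass (standard error 0.0803, limma adjusted p = 0.0963), and it was -0.0063 after quantile normalization. MIEN1, a neighbour on the opposite strand, shares 571 bp of exon with ERBB2 and had 24.7% of its reads (log2 fold change 0.23, limma adjusted p = 0.197), and PGAP3 shares a further 144 bp. Because the strand setting of the counting is not given in the sources used here, reads in the shared exons cannot be assigned with certainty.

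ERBB3 (ENSG00000065361.15, chromosome 12, 56076799 to 56103505, plus strand), a neuregulin receptor with a weak kinase and many PI3K docking sites, was the least expressed of the 10. It had 17 to 54 reads per library, with values of 33.6, 18.9 and 31.0 in control and 29.8, 28.6 and 40.9 in low glucose. These ranges overlapped, and counting alone would give a coefficient of variation of 19.9% in control, where 28.1% was measured. The log2 fold change was 0.26 with a 95% confidence interval from -0.34 to 0.87 (limma adjusted p = 0.526), so that a change as large as that of MET lay inside the interval. The estimate was 0.017 without the control library of 10126218 reads, 0.42 without that of 9741183 reads, 0.11 without the third low-glucose library and 0.016 after quantile normalization.

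The insulin and IGF receptors are close relatives that also form hybrids. IGF1R (ENSG00000140443.15, chromosome 15, 98648539 to 98964530, plus strand) had values of 503, 680 and 404 in control and 345, 365 and 373 in low glucose. The controls were widely spread, the low-glucose values were close together, and the lowest control value lay above the highest low-glucose value. The mean went from 529 ± 140 (SD, n = 3) to 361 ± 14.1 (SD, n = 3), a log2 change of -0.52 with a standard error of 0.143 (limma adjusted p = 0.0129). It was -0.32 (adjusted p = 0.011) without the control library of 10126218 reads and -0.70 (adjusted p = 0.000126) without that of 10190154 reads. IGF1R lost its call without low glucose replicate 1 (adjusted p = 0.0775), without low glucose replicate 2 (0.0508) and without the trend in the variance model (0.132), where the alternatives as a whole spanned 0.000126 to 0.132. INSR (ENSG00000171105.14, chromosome 19, 7112255 to 7294414, minus strand), the insulin receptor, had values of 345, 382 and 304 in control and 287, 302 and 302 in low glucose. The lowest control value exceeded the highest low-glucose value only narrowly, and the ranges overlapped with reads scaled to library size. Its log2 fold change of -0.21 did not pass (standard error 0.105, limma adjusted p = 0.157), while it was -0.13 (adjusted p = 0.369) without the control library of 10126218 reads and -0.29 (adjusted p = 0.0336) without that of 10190154 reads. Neither receptor gene shares exon bases with another gene.

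Of the 2 substrates, IRS2 rose and IRS1 did not pass. IRS2 (ENSG00000185950.9, chromosome 13, 109752695 to 109786583, minus strand) had values of 179, 247 and 186 in control and 316, 276 and 329 in low glucose. All low-glucose values were above the highest control value, which again came from the library of 10126218 reads. The mean rose from 204 ± 37.5 (SD, n = 3) to 307 ± 27.9 (SD, n = 3), by 0.60 on the log2 scale with a standard error of 0.131 (limma adjusted p = 0.00313). It passed in 15 of the 16 alternatives and missed the threshold without the variance trend (adjusted p = 0.0562, in a range of 3.37e-06 to 0.0562). On the other strand, ENSG00000275741 shares 115 bp of exon with IRS2 and had 4.76% of its reads. IRS1 (ENSG00000169047.5, chromosome 2, 226731312 to 226799820, minus strand), the other main substrate, had values of 1898, 2362 and 1802 in control and 1752, 1708 and 1659 in low glucose. Each low-glucose value was below each control value, though the ranges overlapped with reads scaled to library size. The change of -0.23 did not pass (standard error 0.0945, limma adjusted p = 0.0748). Without the control library of 10126218 reads it was -0.12 (adjusted p = 0.169), without that of 10190154 reads -0.31 (adjusted p = 0.00946), with a length trend removed from each library -0.18 (adjusted p = 0.0493), and after quantile normalization -0.020 (adjusted p = 0.892).

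**Figure D2:**
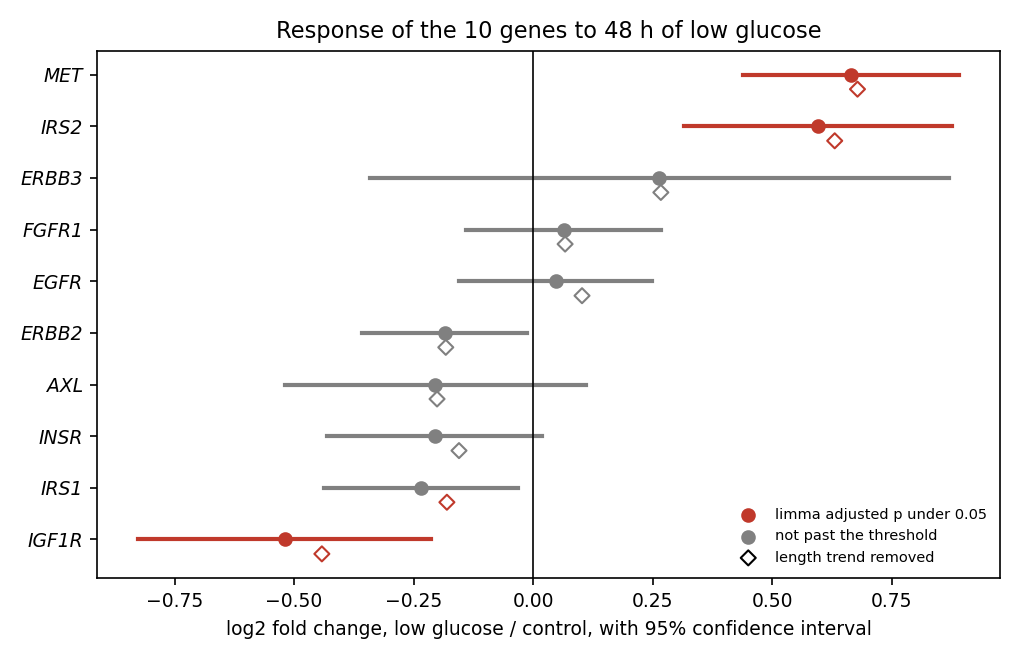
Log2 fold change of the 10 genes, low glucose over control, as filled circles with 95% confidence intervals from limma (n = 3 libraries per condition), and as open diamonds after removal of a length trend from each library. Red marks an adjusted p under 0.05 in the respective fit: MET (0.66), IRS2 (0.60) and IGF1R (-0.52) pass in both, and IRS1 passes only with the trend removed (-0.18).

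Levels of different genes were compared as RPKM, that is, reads scaled to the length of the canonical transcript in kilobases and to the size of the library. In control the order was AXL (30.5 ± 8.46, SD, n = 3), ERBB2 (29.4), IRS1 (18.7), EGFR (18.4), FGFR1 (5.09), IGF1R (3.91), INSR (3.29), MET (2.59), IRS2 (2.27) and ERBB3 (0.451). The ranges of the libraries overlapped for the neighbours AXL and ERBB2, IRS1 and EGFR, IGF1R and INSR, and MET and IRS2, and not for the other neighbours. In low glucose MET (4.37 ± 0.324, SD, n = 3) and IRS2 (3.61 ± 0.337, SD, n = 3) ranked above INSR (3.01) and IGF1R (2.83), which overlapped each other. At the top, ERBB2 (27.3) and AXL (27.3) overlapped and EGFR (20.0) stood above IRS1 (16.7) with no overlap. The 2 genes that rose thus came from the lower end of the range, and both stayed below FGFR1 in every library.

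**Figure D3:**
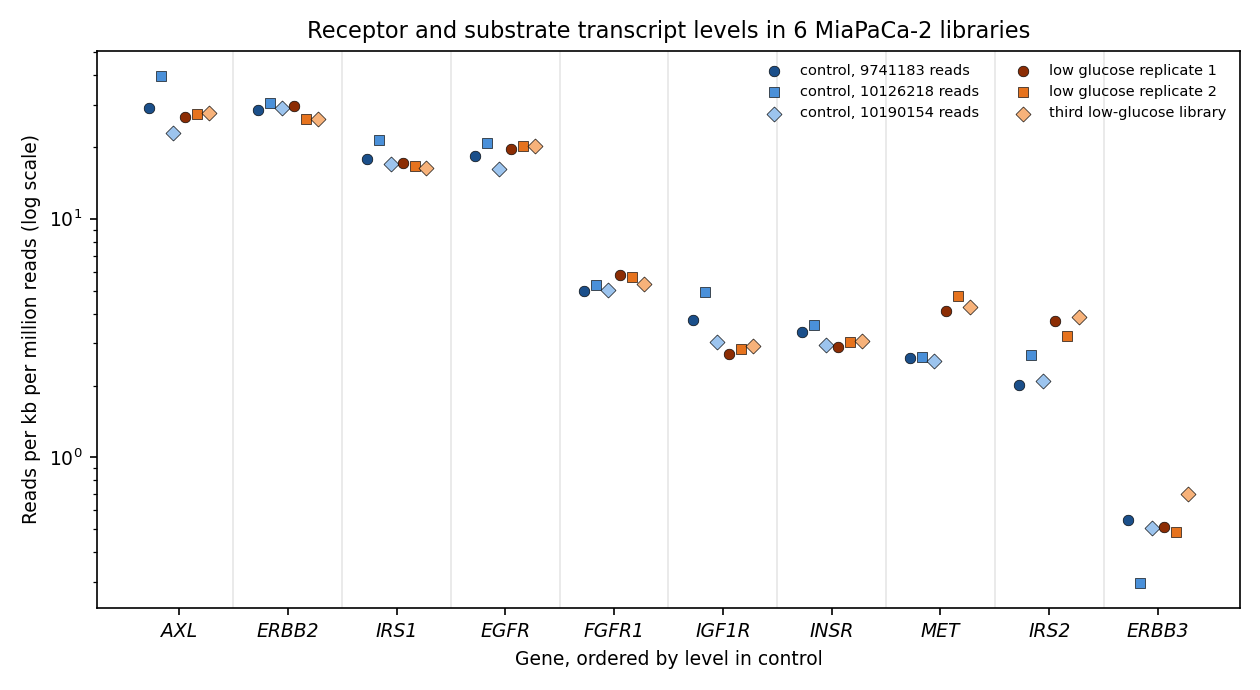
RPKM, the reads scaled to transcript length and library size (vertical axis, log scale), for each of the 10 genes in each of the 6 libraries, in the order of their mean level in control. ERBB3 lies below 1 in every library, AXL and ERBB2 lie above 20, and MET and IRS2 rise past IGF1R and INSR in low glucose.

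Ratios of related genes were computed within each library on value + 1, so that a scaling factor common to all genes of a library cancels nearly in full, whereas quantile normalization does not cancel. The percentages that follow are geometric means of normalized counts, not corrected for transcript length. IRS2 stood at 10.1% of IRS1 in control and at 18.0% in low glucose, a difference of 0.83 on the log2 scale (0.59 after quantile normalization). The log2 ratio was -3.40, -3.25 and -3.27 in control and -2.46, -2.63 and -2.33 in low glucose, with no overlap. MET went from 12.7% to 23.2% of AXL (difference 0.87) and INSR from 66.2% to 82.3% of IGF1R (difference 0.31), also without overlap. By RPKM, which corrects for length, mean INSR (3.01) was above mean IGF1R (2.83) in low glucose. The difference for INSR to IGF1R was 0.20 without the control library of 10126218 reads and 0.41 without that of 10190154 reads. For MET to AXL it was 0.67 without the former library, 1.04 without the latter and 0.65 after quantile normalization. The exact permutation test (two-sided) gave p = 0.1 for each of these 3, the smallest that 3 libraries against 3 allow, and 0.167 after adjustment over the 5 ratios computed. The ratio of ERBB3 to its partner ERBB2 differed by 0.45 (exact permutation p = 0.5, adjusted 0.625) and that of ERBB3 to EGFR by 0.22 (exact permutation p = 0.8, adjusted 0.8), both with overlap. Without the control library of 10126218 reads these differences were 0.16 and -0.14, and after quantile normalization 0.022 and -0.24, so that the sign of the second turned in both cases.

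**Figure D4:**
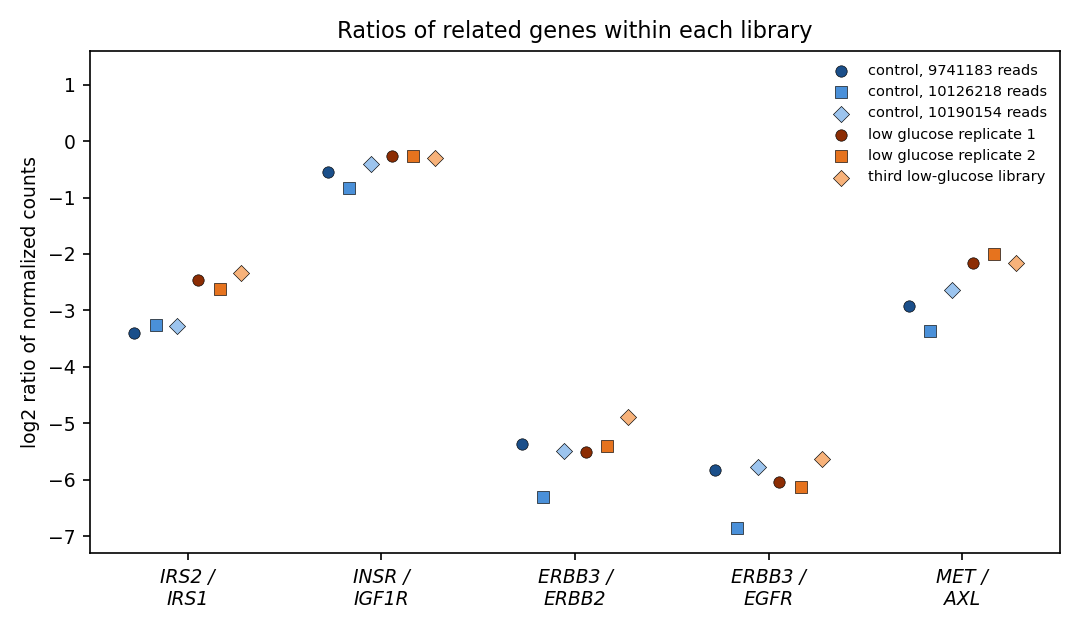
Log2 ratio of the normalized counts of 2 related genes (vertical axis) in each of the 6 libraries, for 5 ratios. All 3 low-glucose points lie above all 3 control points for IRS2 to IRS1, INSR to IGF1R and MET to AXL, and the points mix for both ratios of ERBB3.

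The spread between replicates was unequal for several of the receptors. The SD of log2 values of AXL was 0.423 in control and 0.0282 in low glucose, that of IGF1R 0.376 and 0.0566, and that of EGFR 0.207 and 0.0254. With a trend in transcript length removed from each library, a step added after the data were seen, the control SD of EGFR fell to 0.0777. That of INSR fell from 0.166 to 0.0369, that of IRS1 from 0.207 to 0.0974 and that of IGF1R from 0.376 to 0.231. The control SD of AXL went from 0.423 to 0.371, and that of ERBB3 rose from 0.431 to 0.494. As a description, the genes whose values followed MET most closely over the 6 libraries, among 10149 genes whose mean reached 100, were TRIM5 (Pearson r = 0.999), TMEM268 (0.997) and SLC4A3 (0.995). Those closest to IRS2 were TXNDC11 (0.996), RNF125 (0.996) and CLMN (0.994), and those closest to IGF1R were HSPG2 (0.999), NFIX (0.999) and IQGAP1 (0.998). The 6 points of each pair share their libraries, depth and condition.

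On the ligand side, 4 of the 7 EGFR-family ligands tested (57.1%) rose and 3 did not pass, where 14.7% of all genes tested were higher, with a median log2 fold change of 0.36 against 0.049 for all genes tested. AREG, the gene of amphiregulin, had values of 649, 519 and 719 in control and 1467, 1389 and 1288 in low glucose. This is a clear separation, and the log2 change was 1.14, with a standard error of 0.107 (limma adjusted p = 2.84e-06). EREG (epiregulin) rose by 0.42 and BTC (betacellulin) by 0.62, with limma adjusted p-values of 0.000885 and 0.00375. The fourth was EPGN (0.36, limma adjusted p = 0.0493), named after its value was seen, which was close to the threshold. The number that rose was 3 in 10 of the 16 alternatives, DESeq2 and 5 of the 6 that left out 1 library among them. EGF, TGFA, NRG1 and NRG3 had 0 to 2 reads in each library, where a count of 0 allows up to 3 reads, or 0.218 to 0.308 CPM (reads scaled to library size) over these libraries, for counting error only.

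For the other receptors, 11 ligands were listed and 5 were tested, of which 2 rose and 2 fell (80%, against 30.9% of all genes tested). The number that rose was 0 without low glucose replicate 1, without replicate 2 or without the variance trend. FGF2 rose by 0.31 (limma adjusted p = 0.0212) and GAS6, the ligand of AXL, by 0.41 (limma adjusted p = 0.0295), calls that were lost in 4 and 7 of the 16 alternatives. FGF1 fell by 0.86 and FGF5 by 0.76, with limma adjusted p-values of 0.0130 and 0.0151, and these calls were lost in 1 alternative (0.0552 without the third low-glucose library) and in 2 (0.0509 without the control library of 9741183 reads and 0.0757 without low glucose replicate 2). HGF and IGF2 had at most 1 read in any library, and IGF1 and INS had 0, so the ligands of MET, IGF1R and INSR were at or under the floor. Among the IGF binding proteins and the decoy receptor, 2 of 7 (28.6%) rose and 5 did not pass, where 14.7% of all genes tested were higher. IGF2R, which takes IGF2 to lysosomes, had values of 2643, 3048 and 2507 in control and 3785, 3696 and 3710 in low glucose, a rise of 0.45 (limma adjusted p = 0.000746). IGFBP5 rose by 1.31, from control values of 6.73 to 13.9, a call lost without low glucose replicate 1 (limma adjusted p = 0.0691). IGFBP6 was the most abundant of the list at 249 RPKM in control and 243 in low glucose, and did not pass.

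Of 20 further receptor tyrosine kinases tested, 0 rose and 3 fell by limma (15%, against 30.9% of all genes tested). At an unadjusted p under 0.05, 3 were higher, while edgeR and DESeq2 each called 0 higher, and without the control library of 10126218 reads 4 rose and 4 fell. ROR1, a WNT5A receptor, had values of 143, 79.1 and 139 in control and 34.6, 32.6 and 35.6 in low glucose, a fall that was present in all 16 alternatives. On the log2 scale the change was -1.74, with a standard error of 0.224 (limma adjusted p = 4.61e-05). EPHB2 fell by 0.62 (limma adjusted p = 0.00192). EPHA2, the most abundant of the list, had a log2 fold change of -0.20 (limma adjusted p = 0.0384) that was lost in 10 of the 16 alternatives, those without any 1 of the 3 low-glucose libraries included, and was 0.033 after quantile normalization. ERBB4, the remaining EGFR-family member, had 0 reads in all libraries. The proteases that shed or process receptors and ligands gave 1 rise (ADAM17, 0.36) and 2 falls (ADAM9, -0.46, and PCSK7, -0.31) among 7 tested (42.9%, against 30.9% of all genes). ADAM17 lost its call without the control library of 9741183 reads (limma adjusted p = 0.052), without low glucose replicate 1 (0.0509) and without the variance trend (0.0859), and PCSK7 without low glucose replicate 2 (0.0518) and without the variance trend (0.0534).

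Below the receptors, 4 of 19 adaptors rose and 4 fell (42.1%, between the 30.9% of all genes and the 48% of those with a mean of 100 or more). The rises were in SHC2 (2.53), GAB2 (1.54), FRS3 (1.23) and SOS2 (0.59), and the falls in GRB7 (-0.92), CRKL (-0.45), GRB2 (-0.42) and CRK (-0.33), with SOS2 and CRK named after their values were seen. SHC2 rose from a low level, with values of 11.2, 5.57 and 21.4 in control and 71.2, 63.2 and 73.5 in low glucose. GRB2, which links receptors to SOS and RAS, had values of 1793, 2091 and 1781 in control and 1437, 1386 and 1387 in low glucose (limma adjusted p = 0.00112). SHC1, the most abundant adaptor at 166 RPKM in control and 181 in low glucose, did not pass (0.038, limma adjusted p = 0.758). IRS4, another substrate gene, had 0 reads.

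In the PI3K, AKT and TSC list 1 of 18 rose and 6 fell (38.9%, also between these shares), while 4 rose and 6 fell without the control library of 10126218 reads and 3 fell after quantile normalization or without the variance trend. The kinase genes AKT1 and AKT2 fell by 0.33 and 0.45, with limma adjusted p-values of 0.00272 and 0.000676. AKT1 missed the threshold after quantile normalization (adjusted p = 0.0848). PIK3R1, the regulatory subunit that binds IRS proteins, fell by 0.91 (limma adjusted p = 0.0124) from control values of 68.5 to 94.7, a call lost without the control library of 9741183 reads (0.0518), without low glucose replicate 1 (0.0668) and without the variance trend (0.0909). PIK3CD, a catalytic subunit, rose by 0.44 (limma adjusted p = 0.00905) and missed the threshold without low glucose replicate 2 (0.0556). In the RAS, RAF, MEK and ERK list KSR1, a scaffold, rose by 0.63 (limma adjusted p = 0.00393).

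Negative regulators moved in both directions, 7 higher and 6 lower of 24 tested (54.2%, against 30.9% of all genes and 48% of those with a mean of 100 or more). The number higher was 4 without the control library of 9741183 reads, without the third low-glucose library or without the variance trend. ERRFI1, an inhibitor that binds EGFR kinase and the most abundant of the list, had values of 7705, 7789 and 7689 in control and 10426, 9982 and 10461 in low glucose. It rose by 0.41 (standard error 0.0742, limma adjusted p = 0.000705). CBLB, a ubiquitin ligase of activated receptors, rose by 1.96 from control values of 10.1 to 15.6, and GRB10, an adaptor that inhibits the insulin and IGF1 receptors, rose by 0.84 (limma adjusted p = 1.73e-05). GRB10 had values of 464, 587 and 469 in control and 898, 886 and 928 in low glucose. The falls included SOCS3 (-0.87), SPRY1 (-0.77) and PTPN1 (-0.62), the last encoding a phosphatase of the insulin receptor, and these 3 passed in all 16 alternatives.

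Of the FOXO factors and their textbook targets, 6 of 17 tested (35.3%) rose and 11 did not pass, where 14.7% of all genes tested were higher, with a median log2 fold change of 0.24. Fewer than 6 rose in 7 of the 16 alternatives, 5 of the 6 that left out 1 library among them. After quantile normalization 6 rose and 1 fell, and the median was 0.047. FOXO3 itself had values of 191, 194 and 199 in control and 294, 288 and 311 in low glucose, a rise of 0.61 (limma adjusted p = 0.000361). GADD45A, also a target of p53 and of stress pathways, rose by 1.98 and CCNG2, a cyclin of resting cells, by 1.04. Over the 10 lists, 53 of 135 tested genes passed, 28 higher and 25 lower, or 39.3%, which lies between the 30.9% of all genes and the 48% of genes whose mean reached 100.

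**Figure D5:**
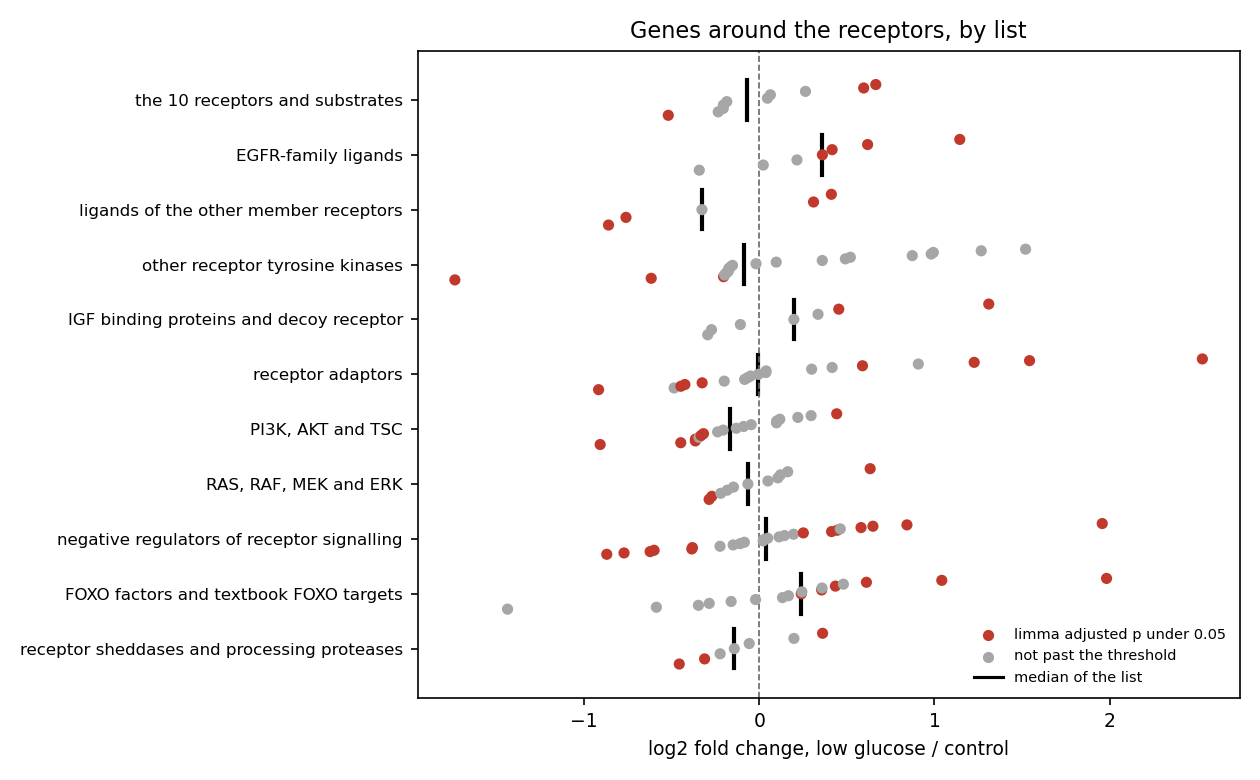
Log2 fold change, low glucose over control, of each tested gene (points) in the 10 receptors and substrates and the 10 lists around them, with black bars for the medians and red for a limma adjusted p under 0.05. The EGFR-family ligands have 4 red points, all to the right of 0, and the PI3K, AKT and TSC list has 6 red points to the left and 1 to the right.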

How the data were processed

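RNA-seq of MiaPaCa-2 was analysed from 1 table of 6 libraries. According to the processing notes, the authors trimmed reads with Trim Galore, mapped them to hg38 with STAR 2.7.0e and used DESeq2. RSEM is in the study's software list, and the counting tool, its strand setting and the annotation are not given in the sources used here. The deposited values are a signal: read counts per gene after division by 1 size factor for each library. All values (100%) in each library equalled whole numbers of reads (tolerance 0.01), and median-of-ratios factors recomputed over 17906 genes matched. The libraries held 9741183 to 13733477 reads, and 28454 genes had a read. Gene identifiers were matched to Gencode v44 (99.4%). Low glucose replicates 1 and 2 are tied to their columns by the labels. The other 4 columns were placed by their names, which run in 3s, 1 run per condition.

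Values were compared as log2(value + 1), which understates changes of low genes, for genes whose mean reached 1, using limma 3.58.1 (lmFit, eBayes with trend, two-sided, R 4.3.3), and ratios with exact permutation tests. The comparison was rerun with library size, TMM or quantile scaling, no filter or a mean of at least 10, a pseudocount of 0.1 and no variance trend. Other reruns used edgeR 4.0.16 and DESeq2 1.42.0 on recovered reads, each library left out, and a length trend removed (loess, span 0.3). A check on simulated data gave all genes and libraries the same spread beyond counting and no length trend. It therefore does not cover the unequal spread seen here. The members and the 10 lists were chosen with earlier results of these data known. In each list, the genes named are the most abundant per kilobase and up to 3 that rose and 3 that fell most, among called genes with a mean of at least 10 and no overlap between the conditions. Some genes that this rule names are not reported here. SOD2 of the FOXO list was not matched. Promoters are RefSeq's.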

Additional observations from a re-analysis of the deposited data

How the results depend on the processing

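No paired analysis was possible because replicate numbers are known for just 2 of the columns, both low glucose. Of the 160 alternative fold changes of the 10 genes, 149 kept their direction and their side of the threshold and 11 did not. The number of the 10 that passed was 1 without the variance trend (MET), 4 after quantile normalization (EGFR added), 4 with the length trend removed, an alternative added after seeing the data, and 2 to 6 with 1 library left out, the 2 without either of low glucose replicates 1 and 2 and the 6 without the control library of 10190154 reads. The number over all genes was 4090 without the variance trend and 4319 to 7251 with 1 library left out, the fewest without low glucose replicate 1. On recovered reads edgeR called 6554 genes and DESeq2 5486, of which 6120 and 5448 were among the 6528. With 1 library left out, AXL ranged from -0.40 to 0.018, the latter without the control library of 10126218 reads, and EGFR from -0.052 to 0.15, the former without that of 10190154 reads. The ratio of ERBB3 to EGFR turned to -0.24 after quantile normalization, and ranged from -0.14 to 0.41 with 1 library left out. The cause of these changes was not tested. With 3 libraries per condition the precision is limited by their spread, and for ERBB3 also by its 17 to 54 reads.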
